A study of Sus scrofa with 6 samples.

Results

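MRPL23 lies beside H19 and IGF2, the pair of oppositely imprinted genes of pig chromosome 2, and it encodes a protein of the mitochondrial ribosome. It was measured together with other large-subunit proteins of that ribosome whose genes are on the same chromosome, and the question was whether MRPL23 differed from them between embryos with and without a paternal genome. The members were chosen by gene family and chromosome, with no measured value in the rule, though earlier results of these data were known. Of 8 genes listed, 7 were analysed (MRPL23, MRPL11, MRPL16, MRPL34, MRPL4, MRPL49 and MRPL54), among 30139 genes in the tables. MRPL21 was not analysed here, because the annotation used gave no chromosome 2 transcript under that symbol. All 7 passed the filter on low counts that left 1652 genes for testing, 1541 of them on chromosome 2.

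RNA of whole Landrace x Yorkshire x Duroc embryos at embryonic day 21 was sequenced, from 3 parthenogenetic (PA) and 3 control (CN) embryos, with the treatment labelled parthenogenesis in PA and untreated in CN. PA embryos came from oocytes of Landrace x Yorkshire x Duroc pigs, matured in vitro and activated by electric pulses, so they carried maternal genomes only. They were placed in the oviducts of Landrace x Yorkshire surrogate gilts. CN embryos had both parents, Landrace x Yorkshire gilts mated naturally with boars whose breed the methods leave unstated. The groups therefore differed in the breed of the mothers, oocyte culture and transfer as well as in the paternal genome, and these cannot be told apart here. The methods name fewer gilts than embryos in each group, so some embryos of a group shared a gilt. Neither the labels nor the methods give the litter of each embryo, so p-values measure the spread between these 6 embryos. In whole embryos, fewer cells of a type and less RNA per cell cannot be told apart.

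Mitochondria translate their own small genome on a ribosome of their own, and the proteins it makes are core subunits of the respiratory chain. The ribosomal RNAs of that ribosome are encoded in the mitochondrion, but every one of its proteins is encoded in the nucleus, made in the cytosol and imported. Some of these proteins, among them MRPL23, MRPL4, MRPL11, MRPL16 and MRPL34, have bacterial counterparts, while MRPL49 and MRPL54 are additions found in mitochondria. The genes for them are scattered over the nuclear chromosomes and are expressed in nearly all cells.

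Estimated counts summed to 3100284 to 3276414 in CN and to 3360478 to 3573406 in PA embryos, with 99.6% to 99.7% on chromosome 2. Each TPM value is a share of these tables and so nearly of chromosome 2 alone, which makes it larger than a genome-wide TPM of the same gene would be. IGF2, a paternally expressed growth factor that checks the labels, had 17613 ± 2805 TPM (transcripts per 1e+06, a length-corrected share; SD, n = 3) in CN and 391 ± 138 in PA embryos. H19, a maternally expressed non-coding RNA, took 6.88% to 7.74% of all counts in CN and 16.9%, 10.2% and 8.44% in PA1, PA2 and PA3, so PA1 stood apart. Of 12 marker genes of embryonic tissues on this chromosome, 11 were tested. The neural genes PAX6 (log2 fold change 0.84) and SYT13 (0.70) were higher in PA, and the muscle gene TNNI2 (-1.34) and the coelomic gene WT1 (-0.47) were lower (edgeR, adjusted p under 0.05), WT1 not without CN2, CN3, PA2 or PA3 (adjusted p up to 0.0990). Of the trophoblast markers, ASCL2 had at most 7 counts in any embryo and ELF5 had 23 to 44 (log2 fold change 0.44, edgeR adjusted p = 0.570). Leaving out 1 embryo moved ELF5 from 0.13 without CN1 to 0.70 without PA2. The summed marker level was 1052 to 1380 TPM in CN and 930 to 972 TPM in PA, and its part in the results below was not tested.

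The genes lie far apart on chromosome 2 of Sscrofa11.1. MRPL23 spans 1346864 to 1356539 on the plus strand, MRPL11 spans 5978470 to 5981449 (plus), and MRPL49 spans 7066514 to 7071812 (minus). MRPL16 follows from 11689511 to 11694248 (plus), MRPL34 from 60377904 to 60378967 (minus), MRPL4 from 69063679 to 69082692 (plus) and MRPL54 from 74925064 to 74928196 (minus). MRPL23 is thus the member nearest to the imprinted pair, with IGF2 lying 112644 bases beyond its end.

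The sequences before the transcription starts of MRPL23, MRPL16 and MRPL54 are shown because the members, though they serve 1 complex, did not share a start-site composition. Each runs from 250 bases before the annotated start of the main transcript to 30 bases from it on, in the direction of transcription, as read from the Sscrofa11.1 genome. Capitals mark a match to a searched motif on either strand: the SP1 motif GGGCGG, the ETS motif CCGGAAG, the YY1 motif AAGATGGCG, the core promoter motif TATAAA or the palindromic NRF1 motif.
MRPL23, chr2:1346614-1346893, plus strand: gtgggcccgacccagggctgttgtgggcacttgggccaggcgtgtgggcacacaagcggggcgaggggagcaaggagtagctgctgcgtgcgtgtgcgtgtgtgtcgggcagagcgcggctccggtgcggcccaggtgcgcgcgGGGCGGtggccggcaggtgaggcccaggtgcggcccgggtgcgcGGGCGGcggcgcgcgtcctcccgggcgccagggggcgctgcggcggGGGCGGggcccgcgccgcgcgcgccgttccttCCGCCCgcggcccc
MRPL16, chr2:11689261-11689540, plus strand: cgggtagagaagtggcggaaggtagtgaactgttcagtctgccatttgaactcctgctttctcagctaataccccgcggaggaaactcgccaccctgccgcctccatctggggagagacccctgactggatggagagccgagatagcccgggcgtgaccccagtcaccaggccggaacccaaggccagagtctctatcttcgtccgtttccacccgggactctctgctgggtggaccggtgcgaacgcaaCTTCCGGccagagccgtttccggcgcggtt
MRPL54, chr2:74928167-74928446, minus strand: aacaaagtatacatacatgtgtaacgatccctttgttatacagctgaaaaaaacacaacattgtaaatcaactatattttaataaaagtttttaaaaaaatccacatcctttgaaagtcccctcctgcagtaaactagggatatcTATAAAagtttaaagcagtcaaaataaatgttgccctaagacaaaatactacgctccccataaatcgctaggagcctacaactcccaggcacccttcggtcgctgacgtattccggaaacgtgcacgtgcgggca

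The MRPL23 window held 80.7% G and C and 42 CpG sites, with SP1 letters at 4 places, whereas the MRPL54 window held 38.6% G and C and 10 CpG sites. The median over 1997 protein-coding promoters of chromosome 2 was 58.6% G and C. SP1 letters were in 3 of 7 members (MRPL23, MRPL11 and MRPL49) and in 47.4% of all these promoters. ETS letters were in MRPL16 alone among the members, against 11% of all promoters, and TATA letters were in MRPL54 alone, against 11.9%. NRF1 and YY1 letters were in none of the 7 and in 1.15% and 1.7% of all promoters. No matches overlapped within the members, and a match is a description of letters only.

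MRPL23 encodes a protein at the exit of the tunnel through which a new polypeptide leaves the ribosome. Its level was 1403, 1326 and 1370 TPM in CN1, CN2 and CN3 and 1238, 1096 and 1077 TPM in PA1, PA2 and PA3. All PA values lay under all CN values, and PA1, the embryo with most H19, was the nearest to the controls. The means were 1366 ± 38.4 TPM in CN and 1137 ± 88.2 TPM in PA (SD, n = 3 each), 16.8% lower in PA, with an exact two-sided permutation p of 0.1, the smallest that 3 against 3 allows. In the edgeR quasi-likelihood fit over all genes the log2 fold change of PA over CN was -0.20 (SE 0.13, 95% interval -0.51 to 0.11, adjusted p = 0.447), so the difference did not pass the test. On the linear scale this is 0.870-fold, with an interval of 0.703 to 1.08. Without PA1 the log2 fold change was -0.32 (adjusted p = 0.162), and it was -0.11 both without PA3 (adjusted p = 0.771) and without CN1 (adjusted p = 0.691).

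MRPL4 also lines the exit tunnel. It had 295, 356 and 347 TPM in the CN embryos and 309, 248 and 276 TPM in the PA embryos, so that CN1 lay among the PA values. Its log2 fold change of -0.19 (SE 0.12, 95% interval -0.47 to 0.098, edgeR adjusted p = 0.444) was close to that of MRPL23. Leaving out 1 embryo moved it from -0.095 without PA2 (adjusted p = 0.788) and -0.12 without PA3 to -0.32 without PA1 (adjusted p = 0.0624, the lowest that any member reached under any alternative).

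MRPL16, next to the catalytic centre of the subunit, had 598, 561 and 564 TPM in CN and 536, 542 and 593 TPM in PA. PA3 lay inside the control range, and the log2 fold change was 0.0098 (SE 0.10, 95% interval -0.23 to 0.25, edgeR adjusted p = 0.974), a value whose sign changed with library totals (-0.043) and without CN2 (-0.057), CN3 (-0.014) or PA1 (-0.0077), and which was 0.11 without CN1. MRPL11 forms the base of the stalk where translation factors bind. It had 718, 701 and 695 TPM in CN and 686, 623 and 661 TPM in PA. The groups did not overlap in TPM, yet the log2 fold change from counts was -0.041 (SE 0.11, 95% interval -0.30 to 0.22, edgeR adjusted p = 0.866). Its sign turned without CN1 (0.041), PA2 (0.012) or PA3 (0.015), and it was -0.12 without PA1, -0.095 without CN2 and -0.098 with library totals. MRPL34, a short protein bound to the ribosomal RNA, was the member with fewest counts, from 320 to 454 per embryo. Its TPM was 283, 295 and 311 in CN and 291, 218 and 242 in PA, with PA1 again within the control range, and its log2 fold change was -0.17 (SE 0.16, 95% interval -0.55 to 0.20, edgeR adjusted p = 0.600). It was -0.065 without PA2, -0.089 without PA3 and -0.35 without PA1.

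In deposited TPM, the 2 members without a bacterial counterpart had tight levels in the PA embryos. On normalized counts the values in PA1, PA2 and PA3 spread wider, at 545, 500 and 460 for MRPL49 and 507, 458 and 436 for MRPL54. MRPL49 had 538, 564 and 605 TPM in CN and 512, 515 and 511 TPM in PA. MRPL54 had 484, 516 and 519 TPM in CN and 453, 448 and 460 TPM in PA. All PA values lay under all CN values for both genes (exact permutation test, two-sided, p = 0.1 for each). From counts, the log2 fold changes were -0.088 for MRPL49 (SE 0.095, 95% interval -0.31 to 0.13) and -0.096 for MRPL54 (SE 0.089, 95% interval -0.30 to 0.11), and neither passed the edgeR test (adjusted p = 0.658 and 0.589). Leaving out 1 embryo moved MRPL49 from -0.027 (without PA3) to -0.14 (without CN2), with -0.052 without CN3 and -0.13 without PA1, and MRPL54 from -0.047 (without PA3) to -0.14 (without PA1), with -0.062 without CN1.

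**Figure D1:**
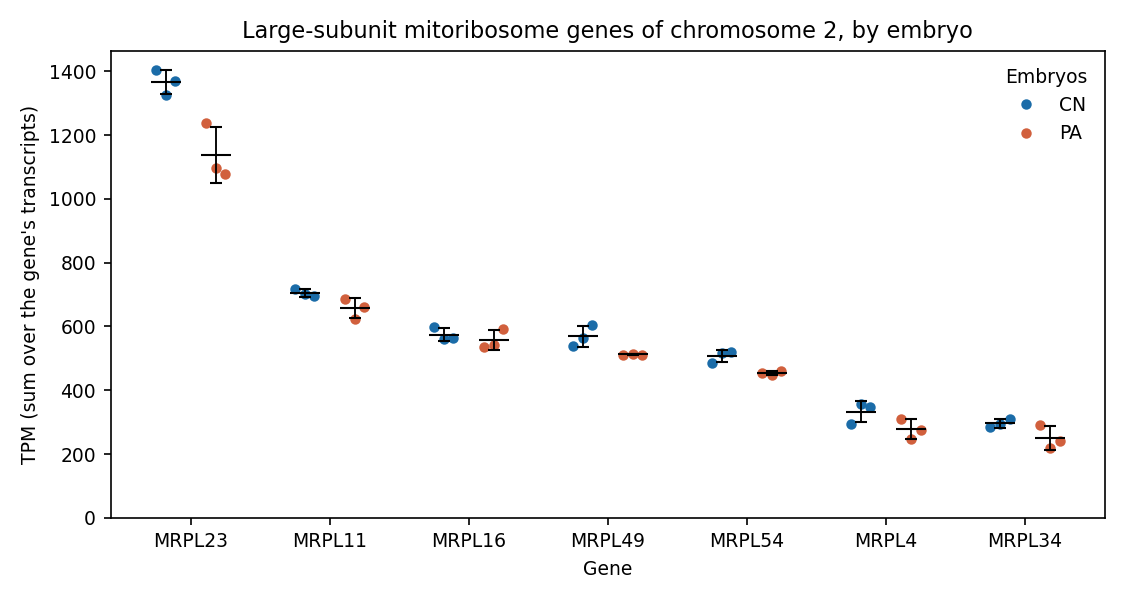
TPM of the 7 genes (vertical axis, linear from 0) in each embryo, with CN in blue and PA in orange. Points are embryos, bars are the mean and SD of 3, and MRPL23 stands highest in both groups, at 1326 to 1403 TPM in CN and 1077 to 1238 TPM in PA.

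TPM corrects for transcript length, so the levels of the genes could be ordered, and the order of the means was the same in both groups. MRPL23 came first, followed by MRPL11, MRPL16, MRPL49, MRPL54, MRPL4 and MRPL34. MRPL23 had 1.94 times the mean of MRPL11 in CN and 1.73 times in PA. Neighbours in the order did not overlap between embryos, except MRPL16 with MRPL49 in CN, and MRPL4 with MRPL34 in both groups. The members together summed to 4318 to 4411 TPM in CN and 3690 to 4025 TPM in PA embryos.

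On deposited TPM, the PA and CN ranges of 4 of 7 members were apart with PA lower, against 16.6% of the 1652 genes tested. That count depended on the scaling of the libraries. When TPM was rescaled without IGF2, H19 and the transcripts of the mitochondrial genome, MRPL23 was the 1 member left (background 14.7%). With factors of the trimmed-mean (TMM) type no member was left (background 15.1%), and the exact p for MRPL23 was 0.3. On normalized counts the ranges of 0 of 7 members were apart (background 14.3%). The median log2 difference of all genes was -0.051, -0.022 and -0.0016 on the 3 TPM scales.

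In the edgeR test 0 of 7 members passed an adjusted p of 0.05, against 6.42% of all genes tested. At an unadjusted p of 0.05 the count was also 0, against 20.9% of all genes, and DESeq2 gave 0 by either threshold. The log2 fold changes were negative for 6 of 7 members, against 48.4% of all genes, and their median was -0.096 against 0.0080 over all genes. The count was 7 of 7 with library totals in place of TMM factors and without CN2, CN3 or PA1, and 5 of 7 without CN1, PA2 or PA3. The median was -0.15 with library totals, and when 1 embryo was left out it ran from -0.047 without PA3 to -0.14 without CN2, and was -0.063 without CN1. Across the 7, the 95% intervals ran from no lower than -0.55 to no higher than 0.25, so none reached a log2 change of 1 in either direction. The members had 320 to 1931 counts in an embryo.

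The ratio of MRPL23 to another member within an embryo does not depend on how that embryo was scaled. Against MRPL16, the log2 ratio of TPM was 1.23, 1.24 and 1.28 in CN and 1.21, 1.02 and 0.86 in PA. The ratio was lower in every PA embryo, by a difference of -0.22, with PA1 close to the controls. Against MRPL11 it was 0.97, 0.92 and 0.98 in CN and 0.85, 0.82 and 0.70 in PA, again without overlap, and the difference was -0.16. Both had an exact two-sided permutation p of 0.1. Against the remaining members the groups overlapped. The differences were -0.12 for MRPL49 and -0.11 for MRPL54 (exact p = 0.3 each), -0.014 for MRPL34 (exact p = 0.9) and -0.0053 for MRPL4 (exact p = 1). Without PA3 the difference was -0.14 for MRPL16 and -0.061 for MRPL54, and without CN1 it was -0.058 for MRPL54 and -0.059 for MRPL49, while without PA1 it was -0.18 for MRPL49 and -0.17 for MRPL54. Of 6 pairs, then, 2 were separated, and the ratio of MRPL23 to any of the other 1651 genes was separated in that direction for 14.5%.

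**Figure D2:**
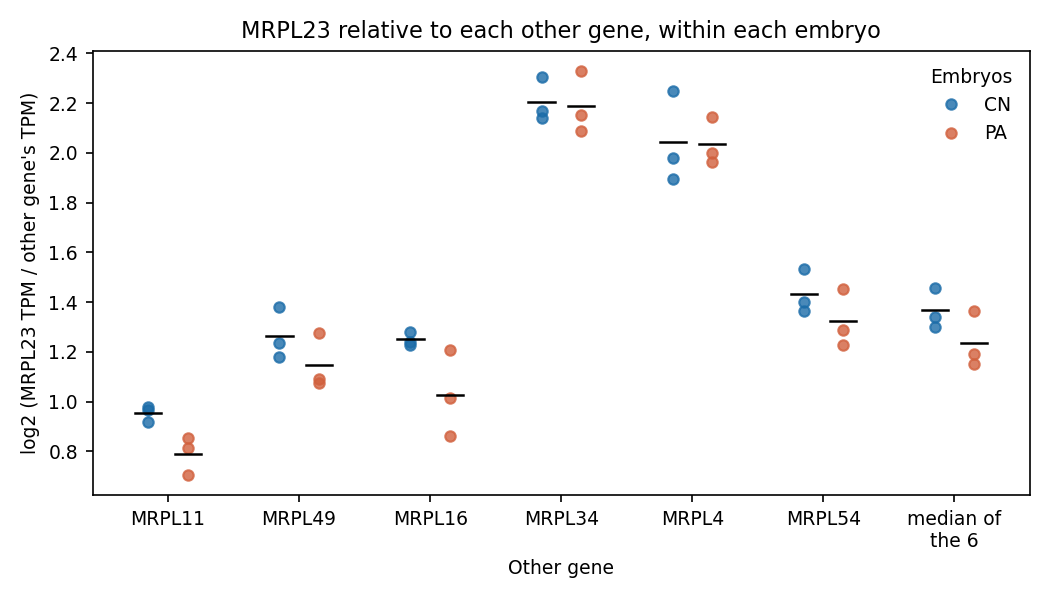
The log2 ratio of MRPL23 TPM to that of each other member, and to the median of the 6, within each embryo (points; black lines are means of 3). CN and PA are separated for MRPL11 and MRPL16 and overlap for MRPL49, MRPL34, MRPL4, MRPL54 and the median.

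Against the median of the other 6 members, the log2 ratio of MRPL23 was 1.458, 1.302 and 1.340 in CN and 1.363, 1.190 and 1.151 in PA, and the groups overlapped through PA1. The means were 1.37 ± 0.082 and 1.23 ± 0.11 (SD, n = 3), a difference of -0.13. Leaving out 1 embryo moved it from -0.086 without CN1 to -0.20 without PA1. The same measure taken for each member in turn was -0.16 for MRPL4, -0.16 for MRPL34, -0.061 for MRPL54, -0.048 for MRPL49, 0.033 for MRPL11 and 0.11 for MRPL16, with overlap in all of them. Each of these values has its own reference, so they do not rank the members.

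The genes around MRPL23 covered a much wider range. Within 200 kb of it the annotation gives 15 genes, of which 7 had at least 10 counts in every embryo and 8 were tested. CTSD, the lysosomal protease cathepsin D, lies 149222 bases before MRPL23 and had 3780 ± 400 TPM in CN and 1286 ± 46.5 TPM in PA embryos. Its log2 fold change was -1.49 (edgeR adjusted p = 1.05e-04). TNNI2, a fast skeletal muscle troponin 92981 bases before, had 229 ± 16.2 TPM in CN and 86.3 ± 2.47 TPM in PA (log2 fold change -1.34, edgeR adjusted p = 0.00164). IGF2 was the third gene called, at -5.42 (edgeR adjusted p = 4.26e-05). All 3 passed in each of 14 alternatives. The antisense transcript IGF2-AS has no coordinates in the annotation and was named by its place in the tables. Its log2 fold change was -3.37 (edgeR adjusted p = 9.97e-05), and without strand its reads cannot be told apart from those of IGF2 on shared exon bases.

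The other tested genes of the window were not called. TNNT3, another fast muscle troponin, lies 29999 bases before MRPL23 and had 69.9, 50.4 and 80.1 TPM in CN and 34.8, 44.9 and 35.1 TPM in PA. The PA embryos were all lower, but the log2 fold change of -0.75 missed the threshold (edgeR adjusted p = 0.128). TNNT3 passed in 1 of 14 alternatives, with no filter on low counts (edgeR adjusted p = 0.0493). LSP1, a leukocyte actin-binding protein 50973 bases before, had a log2 fold change of 0.074 (adjusted p = 0.841), which turned to -0.068 without PA2. On the side of IGF2, INS (insulin), 140303 bases after MRPL23, had -0.083 (adjusted p = 0.930), or from -0.59 without PA3 to 0.32 without CN2, and TH, the tyrosine hydroxylase of catecholamine synthesis, 143089 bases after, had 0.58 (adjusted p = 0.133). H19 has no coordinates in the annotation. In the tables it stands between 2 predicted genes that begin 4646 and 67592 bases after MRPL23, and its log2 fold change was 0.76 (edgeR adjusted p = 0.144). It was 0.36 without PA1 (adjusted p = 0.161), and DESeq2 gave 0.76 with an adjusted p of 0.0196.

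**Figure D3:**
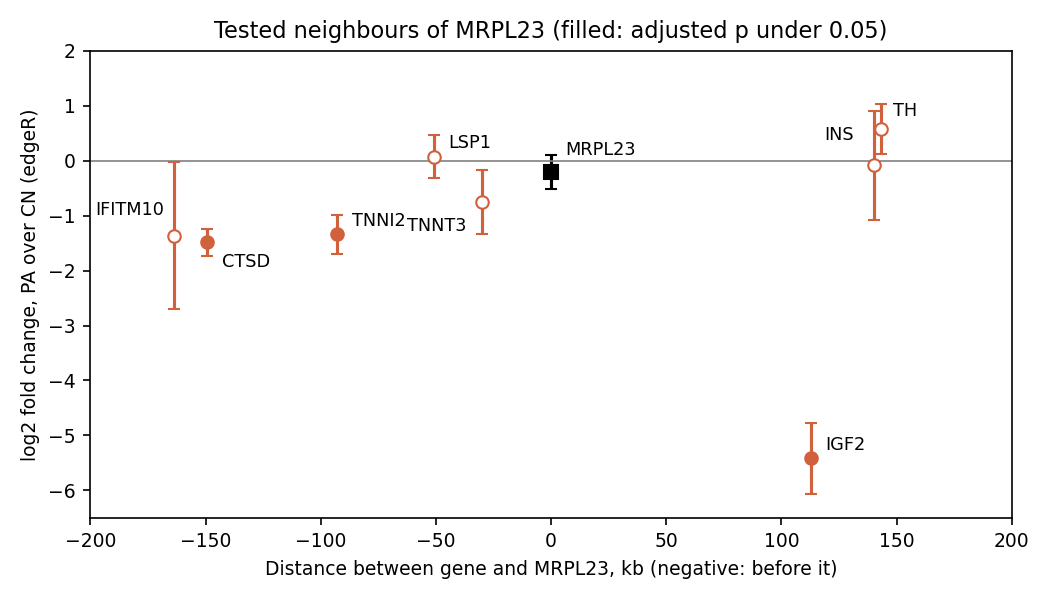
Log2 fold change of PA over CN with its 95% interval (vertical axis) against the distance in kb between MRPL23 and each tested gene within 200 kb. Filled points passed the threshold: CTSD at -1.49, TNNI2 at -1.34 and IGF2 at -5.42, while MRPL23 (square) is at -0.20; H19 and IGF2-AS are left out because they have no coordinates in the annotation.

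MRPL23 has 2 annotated transcripts that differ at the start of exon 1 (22 bases later in the long form), at the end of exon 2 and in the last exon. The short one has 540 bases in 5 exons and a coding sequence of 150 residues between 1346905 and 1352904. In the long one, of 4355 bases, exon 2 runs on for 248 bases and the last exon for 3589 bases. Its annotated coding sequence of 322 residues, from 1355468 to 1356436, lies in that extension and shares 0 coding bases with the short transcript. The first 2 sequences below span the point where the forms part and the third spans the later joint of the long form, with 15 bases on either side, read from Sscrofa11.1 on the plus strand, and the capitals mark the bases after the point or joint.
Short form, exon 2 joined to exon 3: ccggatccccatggaGATGACCAGAGTGGA
Long form, exon 2 reading on at the same point: ccggatccccatggaGTAAGGCCCACCCTG
Long form, end of exon 2 joined to exon 3: agccttcgtcctgggGATGACCAGAGTGGA

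The first point is at base 1348675, and exon 3 begins at 1349462. The short transcript held nearly all of the gene's TPM. Its share was 99.4% ± 0.038 in CN and 99.3% ± 0.15 in PA (SD, n = 3), and the groups overlapped. By estimated counts, in which a long transcript weighs more, its share was 93.3% in CN and 92.7% in PA. The long transcript had 8.68, 8.61 and 7.86 TPM in CN and 6.32, 8.87 and 7.39 TPM in PA, with PA2 above every control. The division of reads between the transcripts is Salmon's estimate and was not measured directly.

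Of the 4 members with more than 1 transcript, MRPL49 was the 1 whose transcript shares did not overlap between the groups, against 10.7% of 875 tested chromosome 2 genes with several transcripts. Its minor transcript of 2385 bases had 14.9, 23.4 and 20.3 TPM in CN and 9.16, 8.41 and 12.3 TPM in PA, so every PA embryo was lower. Its share of the gene's TPM was 3.43% ± 0.69 in CN and 1.94% ± 0.41 in PA (SD, n = 3, exact permutation test, two-sided, p = 0.1). Both transcripts encode the same number of residues, 166. The minor transcript shares 556 of its exon bases (23.3%) with FAU, a gene on the opposite strand that encodes a protein of the cytosolic ribosome, and the main transcript shares 102. The library kit does not mark strand, so reads of MRPL49 and FAU cannot be told apart on those bases. FAU itself had 8886 ± 841 TPM in CN and 9227 ± 821 in PA, with a log2 fold change of 0.10 (edgeR adjusted p = 0.704) that ran from -0.0080 without CN2 to 0.25 without CN1. At its other end MRPL49 shares exon bases with SYVN1, a ubiquitin ligase of the endoplasmic reticulum, whose log2 fold change was -0.16 (edgeR adjusted p = 0.465). The SYVN1 value ran from -0.090 without PA3 to -0.26 without PA1.

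**Figure D4:**
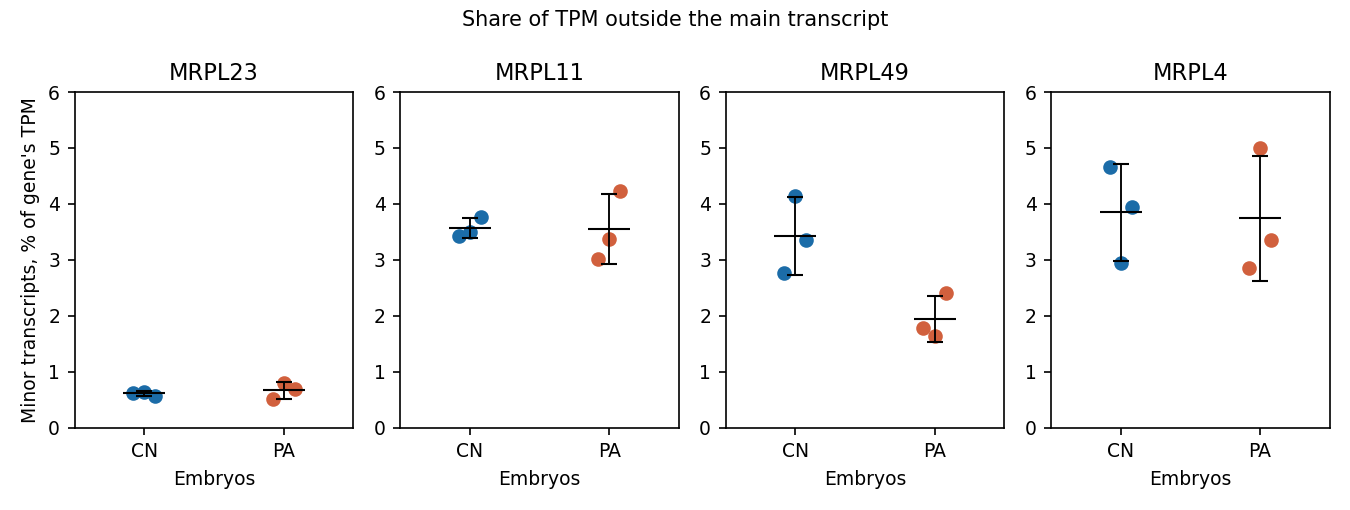
Percent of each gene's TPM outside its main transcript, by embryo (points), with the mean and SD of 3, for the 4 members with more than 1 transcript. MRPL49 is at 3.43% in CN and 1.94% in PA without overlap, and for MRPL23, MRPL11 and MRPL4 the groups overlap.

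In MRPL11 and MRPL4 the main transcript held 96.4% and 96.1% of TPM in CN and 96.5% and 96.3% in PA. MRPL16, MRPL34 and MRPL54 have 1 annotated transcript each.

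The other genes of mitochondrial translation on the chromosome gave no calls either. Among proteins of the mitochondrial ribosome, MRPL55 (log2 fold change -0.022) and GADD45GIP1 (-0.083) were tested, and 0 of 2 passed. GADD45GIP1 ran from -0.19 without CN2 to -0.0053 without CN1. MRPL55 turned to 0.19 without CN1 and to 0.073 without PA2, and the median of both genes was then 0.094 and 0.0097, against -0.053 with all embryos. Among factors of mitochondrial translation and ribosome assembly, a list that also holds the mitochondrial RNA polymerase, 0 of 5 passed and the median was -0.12 (-0.021 without PA2). The 2 with most TPM in this list were MPV17L2, an assembly factor (-0.23, edgeR adjusted p = 0.469), and POLRMT, the RNA polymerase of mitochondria (0.076, edgeR adjusted p = 0.743). MPV17L2 ran from -0.12 without CN1 to -0.40 without PA1, and POLRMT from -0.032 without CN1 to 0.14 without CN3.

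Subunits of complex I, the respiratory enzyme that takes part of its core from mitochondrial translation, gave 2 calls among 9 tested. All 9 on the chromosome had lower TPM in each PA embryo than in any control, against 16.6% of all genes tested, and a negative log2 fold change, against 48.4%. The list was chosen with earlier results of these data known, so these shares are a description. On normalized counts the ranges of 4 of the 9 were apart with PA lower (background 14.3%). Their median was -0.46, and it was -0.28 without CN1 and -0.61 without PA1. The 2 that passed were both lower in PA, a call made for 4.42% of all genes tested. NDUFS7, which carries an iron-sulfur cluster, had 1479, 1509 and 1377 TPM in CN and 981, 831 and 947 TPM in PA (log2 fold change -0.60, edgeR adjusted p = 0.0223). NDUFV1, the NADH-binding subunit, had 1135, 1218 and 1160 TPM in CN and 856, 691 and 791 TPM in PA (log2 fold change -0.52, edgeR adjusted p = 0.0411). Neither call held without CN2, CN3, PA2 or PA3, that of NDUFV1 also not without CN1 (adjusted p up to 0.0916 for NDUFS7 and 0.138 for NDUFV1). The count of complex I calls ran from 0 to 4 when 1 embryo was left out and was 4 with DESeq2, 5 with a replicate block and 6 with no filter on low counts, while all 9 stayed negative in every one of these fits. Among cytosolic ribosome proteins 0 of 10 passed, all 10 had a positive log2 fold change, and the median was 0.13. Without CN2 the positive values numbered 6 of 10 and the median was 0.0095, while the median was 0.30 without CN1, 0.20 without PA3 and 0.074 with library totals. Without CN3 or PA1 the positive values numbered 9 of 10. The 2 with most TPM were RPS28 (0.20, edgeR adjusted p = 0.589) and RPLP2 (0.13, edgeR adjusted p = 0.668). RPS28 ran from 0.064 without CN2 to 0.43 without CN1, and RPLP2 from 0.0094 without CN2 to 0.31 without CN1. The difference between these lists was not tested.

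**Figure D5:**
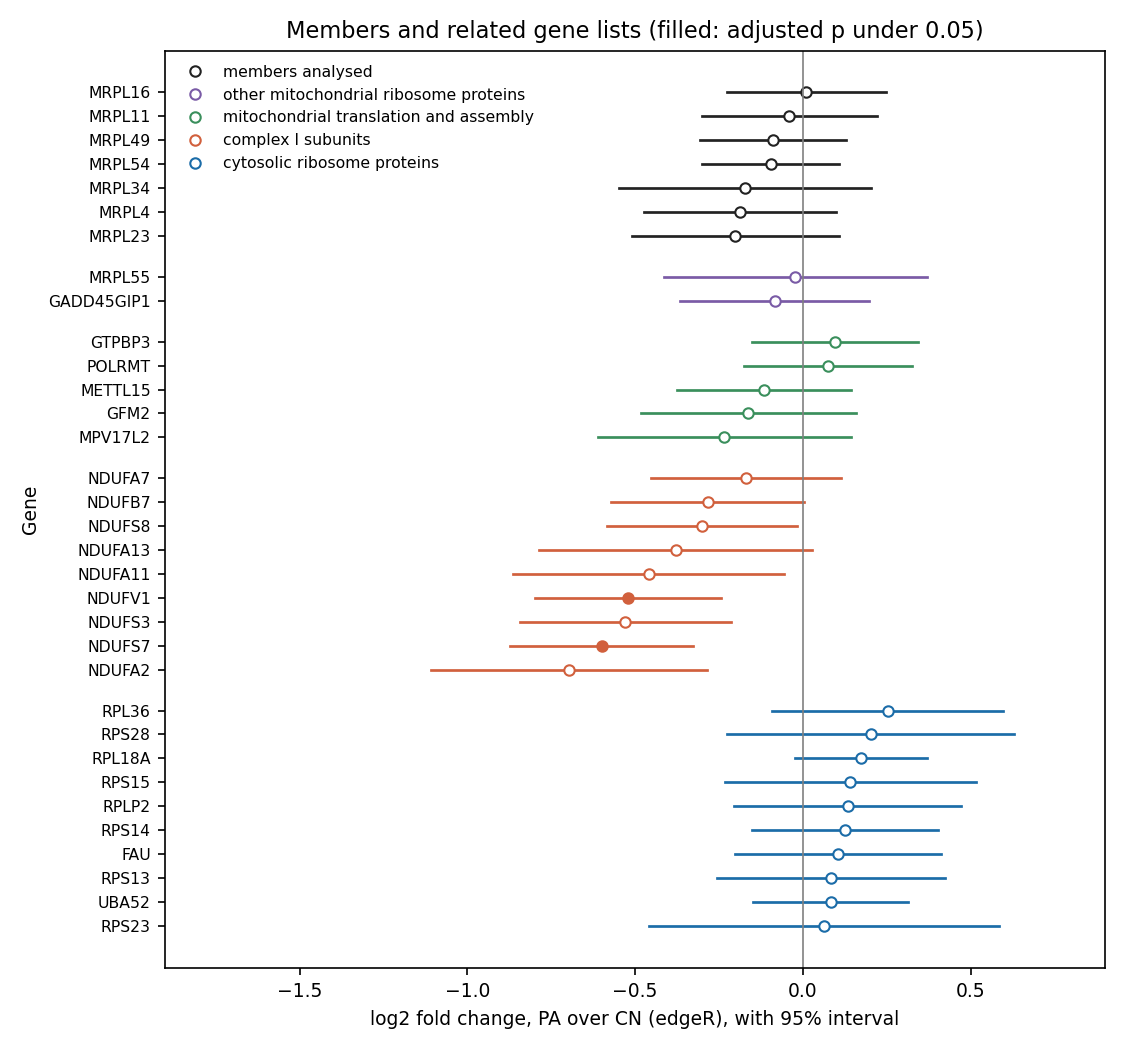
Log2 fold change of PA over CN from the edgeR fit (points) with 95% intervals (lines) for the 7 members and 4 related lists on chromosome 2. Filled points, NDUFS7 at -0.60 and NDUFV1 at -0.52, passed an adjusted p of 0.05, and the intervals of all 7 members include 0.

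The genes of chromosome 2 whose pattern over the 6 embryos was most like that of MRPL23 were not members. Likeness was the root mean square difference of log2 TPM, each gene centred on its own mean, over 1369 genes with a mean of at least 10 TPM. RNASEH2C, a subunit of ribonuclease H2, was nearest (0.034), followed by the transcription factor IRF1 (0.043), the prolyl isomerase FKBP2 (0.053), the secretory pathway protein TMED9 (0.062) and the RNA polymerase subunit POLR2L (0.063). The median over all genes was 0.251. Among the members, MRPL34 ranked 28 and MRPL11 ranked 34, followed by MRPL54 at 41, MRPL49 at 52, MRPL4 at 73 and MRPL16 at 165. All these points share the same 6 libraries.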

How the data were processed

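Whole-embryo RNA was sequenced from polyA-selected, unstranded paired-end libraries. The authors quantified raw reads with Salmon (version 1.3.0 in the submitters' processing notes) on Sscrofa11.1 and deposited, per transcript and embryo, estimated counts that are not normalized. The deposited TPM values are Salmon's, scaled to 1 sum per embryo over tables that hold almost only chromosome 2 reads. How the tables were restricted is not given in the sources used here.

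Here, counts and TPM were summed per gene by NCBI Annotation Release 106. Rounded counts were tested with edgeR 4.0.16 (R 4.3.3; TMM factors, average transcript length offset, filterByExpr with a minimum count of 10, glmQLFTest, Benjamini-Hochberg over 1652 genes, call at adjusted p of 0.05). The mean of log2(TPM + 0.1) was compared by exact two-sided permutation. With 39 transcripts absent from the annotation, H19 and IGF2-AS were named by their place in the tables. DESeq2 1.42.0, scalings, filters and omission of each embryo were alternatives. The edgeR script was checked on simulated data. Of the cytosolic ribosome list, kinases whose symbols begin RPS6K were left out after the list was read. The members and lists were chosen with earlier results of these data known. Named genes are the members, each list's called genes or its 2 with most TPM, neighbours within 200 kb with 10 counts in every embryo, overlapping partners, and the 5 most alike. Outside that rule, IFITM10, ASCL2, ELF5 and the called markers were named after their values were seen. Promoters and junctions were read from the RefSeq genome. Depth was 3100284 to 3573406 counts, and 3 counts correspond to 0.840 to 0.968 CPM.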

Additional observations from a re-analysis of the deposited data

How the results depend on the processing

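For 30 results, 277 values were recomputed under other settings. Of these, 14 changed sign, 7 moved by more than 1 SD (the shares of a main transcript, by counts in place of TPM) and 256 did neither. The number of members called was 0 under every alternative, and MRPL23 stayed between -0.32 and -0.11 on the log2 scale in all of them, with adjusted p from 0.162 to 0.771. The sign changes were all in values near 0. MRPL11 ran from -0.12 to 0.041 and MRPL16 from -0.057 to 0.11 when 1 embryo was left out. MRPL16 was -0.043 with library totals in place of TMM, and its TPM difference was 0.0047 with TMM-type factors. The ratio of MRPL23 to MRPL34 ran from -0.084 to 0.037 and that to MRPL4 from -0.078 to 0.098 when 1 embryo was left out. The cause of these changes was not tested. The calls over all genes numbered 106, against 173 with DESeq2, 196 without a filter and 44 to 142 with 1 embryo left out. No low-value filter was applied to member TPM, so that alternative equals the reported value.

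Same-numbered PA and CN embryos are different embryos, and their deviations from the group means were correlated at 0.224, 0.112 and 0.0258. Embryos with different numbers were not correlated for reference, so these values cannot tell whether the numbers mark a shared batch. With the replicate number as a block, MRPL23 had a log2 fold change of -0.21 (edgeR adjusted p = 0.243) and the calls over all genes numbered 111.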
